A study of Mus musculus with 7 samples.

Results

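The synaptotagmin family was examined in ribosome-bound RNA of mouse Purkinje cells, as 10 genes chosen by symbol (*Syt1*, *Syt2*, *Syt3*, *Syt4*, *Syt5*, *Syt7*, *Syt11*, *Syt12*, *Syt13* and *Syt17*) of the 55401 genes counted. *Syt1* and *Syt2* were set apart as the fast release sensors and the other 8 genes as other isoforms. In the libraries labelled nm3888-/- *Syt11* was at 28.8% of its wild-type level, *Syt3* at 64.6%, *Syt12* at 68.0% and *Syt2* at 75.7%, while *Syt4* was at 135%. These 5 genes passed the test, and *Syt1*, *Syt5*, *Syt7*, *Syt13* and *Syt17* did not.

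Synaptotagmins are membrane proteins of synaptic and other vesicles whose cytoplasmic part carries a pair of C2 domains. In the isoforms that bind Ca2+, these domains insert into phospholipid membranes once Ca2+ is bound and act together with the SNARE proteins that fuse vesicles with the plasma membrane. *Syt1* and *Syt2* encode the low-affinity sensors that trigger the fast, synchronous release of transmitter, and *Syt7* encodes a slower, high-affinity sensor tied to asynchronous release and facilitation. Purkinje cells are the inhibitory output neurons of the cerebellar cortex, whose boutons on the deep cerebellar nuclei release GABA rapidly and at high rates.

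All mice were 3 weeks old and carried Rpl22 fl/+ and PCP2-Cre, so that Cre recombinase switches on an HA-tagged ribosomal protein RPL22 in Purkinje cells and an antibody to HA recovers their ribosomes with the bound mRNA from cerebellum (RiboTag). The 3 wild-type mice carried no further allele, and the 4 mutant mice were homozygous for nm3888, a spontaneous mutation that reduces a transcript of the transcription factor gene *Rreb1*. The mutation arose on the NOD strain and was backcrossed to C57BL/6J. Each library came from 1 mouse. By the library names, wild types 1 and 2 and mutants 1 and 2 formed a first series, all female, and wild type 3 (female) and mutants 3 and 4 (male) a second series. Sex and genotype cannot be told apart within the second series.

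The libraries held 18023017 to 107937386 counts, of which the 10 genes took 0.253 to 0.338%. Levels are given as CPM, the counts scaled to the library total after TMM normalization, and as CPM per kb of exon where genes are compared with each other. The alignments behind the counts were named after Bowtie2 in the first series and after STAR in the second series, and mitochondrial counts were 0.0747 to 0.132% in the first series and 0 in the second series. *Rreb1* was at 16.5 ± 1.81 CPM (SD, n = 3) in wild type and 18.5 ± 5.46 CPM (SD, n = 4) in mutants over all its transcripts (log2 fold change 0.20, adjusted p = 0.640 by edgeR's quasi-likelihood test). In whole mutant cerebellum the study describes loss of the predominant *Rreb1* transcript, with other long transcripts at comparable levels. In mutant brain sections its probe for all transcripts gave no signal. The whole-gene count in ribosome-bound RNA was not lower in the libraries labelled nm3888-/-, unlike the signal of that probe. This count does not separate the transcripts, so it cannot show whether the predominant one was lost. The genotype labels could not be checked by it. Wild types and mutants below are therefore the libraries so labelled, and each direction rests on those labels. The 12 Purkinje cell markers summed to 46548 to 52725 CPM in wild type and 42404 to 57577 CPM in mutants and none was called, among them *Itpr1* (the IP3 receptor) and *Rgs8* (a regulator of G protein signaling). Markers of other cells were also present, and none of the 9 marker lists had a gene at 0 in every library.

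Promoter windows of 4 of the 10 genes were taken from the RefSeq promoter table (build GRCm38.p6, which has the coordinates of mm10 used for the counts). *Syt4* was left out here, which does not mean that the table lacks it. No window was found in the table for *Syt5*, *Syt7*, *Syt12*, *Syt13* and *Syt17*. The stretches below are printed because they precede the start sites of 3 genes that fell and of *Syt1*, the fast sensor that was not called. They are written 5′ to 3′ on the strand of the gene, with each GC box (GGGCGG, or CCGCCC on the other strand) in capitals. For *Syt11* only the 30 bases around each GC box are shown, from chr3:88772664-88772693 and chr3:88772630-88772659 on the minus strand, which lie within an exon of a longer annotated transcript. The *Syt3* stretch is chr7:44383876-44384101 on the plus strand, the *Syt2* stretch chr1:134646362-134646611 on the plus strand, across an exon of the antisense gene *Gm26783*, and the *Syt1* stretch chr10:109010983-109011225 on the minus strand.
Syt11 first site: cagcctgtgaatGGGCGGagactcatcctc
Syt11 second site: aaactcggcagtGGGCGGggtcttctctcg
Syt3: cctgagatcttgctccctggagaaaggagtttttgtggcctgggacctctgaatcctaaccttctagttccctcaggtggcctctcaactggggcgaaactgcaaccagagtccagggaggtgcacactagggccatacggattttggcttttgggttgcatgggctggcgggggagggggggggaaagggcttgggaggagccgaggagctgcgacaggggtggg
Syt2: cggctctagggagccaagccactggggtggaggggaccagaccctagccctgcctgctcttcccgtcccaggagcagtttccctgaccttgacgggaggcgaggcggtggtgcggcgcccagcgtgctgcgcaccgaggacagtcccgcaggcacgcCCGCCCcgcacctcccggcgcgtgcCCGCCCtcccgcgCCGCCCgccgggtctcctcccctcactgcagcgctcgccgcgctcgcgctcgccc
Syt1: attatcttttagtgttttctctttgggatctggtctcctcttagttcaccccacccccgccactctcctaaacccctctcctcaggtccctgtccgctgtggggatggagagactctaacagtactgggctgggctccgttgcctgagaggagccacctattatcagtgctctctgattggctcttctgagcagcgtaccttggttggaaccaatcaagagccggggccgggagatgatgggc

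The 250 bases before the first start site held 2 GC boxes for *Syt11*, 3 for *Syt2*, 1 for *Syt1* (across the end of the printed stretch) and 0 for *Syt3*, and 32.7% of 32851 such windows in the table held at least 1. On either strand, neither CAGATG, an E-box form bound by NEUROD1, nor CAAACCACC, part of the RREB1 consensus, was found in these windows. These letters were present in 14.4% and 0.274% of all windows. The GC content of the windows was 51.2% for *Syt11*, 62.4% for *Syt3*, 76% for *Syt2* and 56.4% for *Syt1*, and the median of all windows was 52.4%.

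In wild-type Purkinje cells the family was dominated by a few genes. On the scale of CPM per kb, *Syt7* was the highest at 194 ± 9.33 (SD, n = 3), followed by *Syt11* at 154 ± 11.2, *Syt2* at 87.5 ± 3.43 and *Syt4* at 69.6 ± 11.6. *Syt12* followed at 16.3 ± 1.50, *Syt3* at 8.21 ± 2.22, *Syt1* at 5.62 ± 0.258 and *Syt13* at 3.54 ± 0.579. *Syt5* was at 0.947 ± 0.261 and *Syt17* at 0.138 ± 0.0450. No neighbors in this order overlapped between wild-type libraries. *Syt2* was therefore the main fast sensor gene, and *Syt1* was below *Syt3*.

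In mutants the order per kb differed. *Syt7* was again first at 212 ± 35.1 CPM per kb (SD, n = 4), *Syt4* was now above *Syt2* (90.3 ± 10.4 against 65.3 ± 5.55), and *Syt11* came next at 44.5 ± 4.89. *Syt12* was at 11.3 ± 0.653. The libraries of *Syt1* (6.56 ± 2.45), *Syt3* (5.65 ± 1.23) and *Syt13* (5.42 ± 1.97) overlapped between neighbors, and so did those of *Syt5* (0.560 ± 0.336) and *Syt17* (0.228 ± 0.0554).

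**Figure D1:**
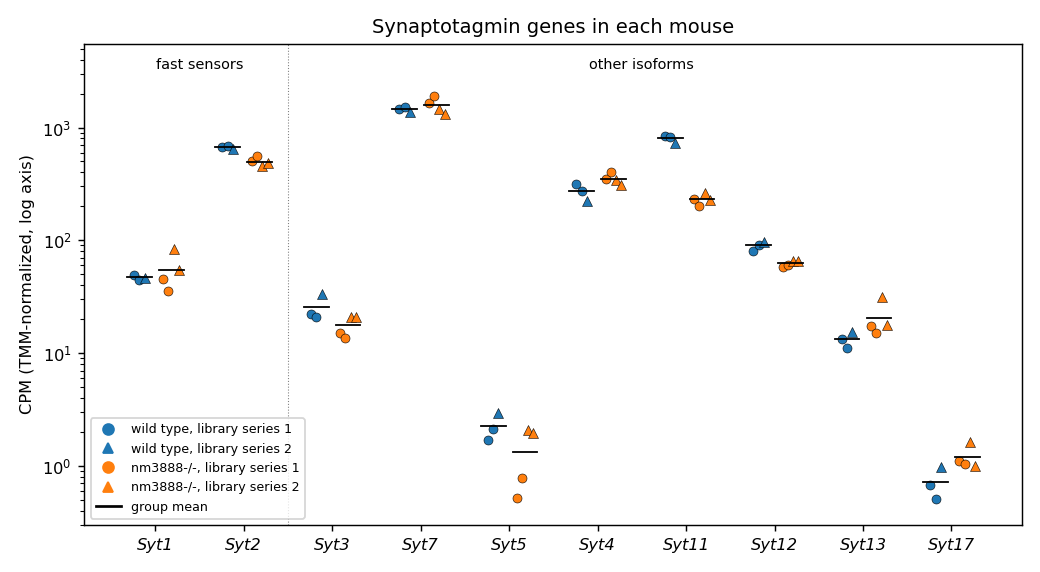
CPM (log axis) of each synaptotagmin gene in the 3 wild-type (blue) and 4 nm3888-/- (orange) libraries, with circles for the first and triangles for the second library series and bars for group means. *Syt11* sat between 733 and 836 CPM in wild type and between 202 and 264 CPM in mutants.

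Between the libraries labelled mutant and wild type, 4 of the 10 genes fell and 1 rose at an adjusted p under 0.05 (edgeR's quasi-likelihood test with library series as a term, Benjamini-Hochberg adjustment over 17621 genes). Among all genes tested, 5.95% were called lower and 2.58% higher, or 8.54% in either direction. With the replicate number as a block 3 of the 10 genes fell and 0 rose. Without wild type 3 only *Syt5* and *Syt11* fell, and 0 rose without wild type 2 or 3 or mutant 2, 3 or 4. Without the series term, with sex in its place, or within either series alone, *Syt11* alone was called. For the 10 genes the log2 fold changes had a median of -0.15, and for all genes tested 0.03. In bulk RNA, fewer cells of a type and less RNA per cell cannot be told apart.

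*Syt2*, a fast sensor gene, lies on chromosome 1 from 134646677 to 134762593 (plus strand, mm10). It was at 672, 692 and 640 CPM in wild types 1 to 3, and at 504, 554, 454 and 482 CPM in mutants 1 to 4. All mutants were below all wild types. Its log2 fold change was -0.40 (SE 0.086, 95% confidence interval -0.60 to -0.21, adjusted p = 0.0227 by edgeR's quasi-likelihood test), and it was -0.37 in the first and -0.45 in the second series. With the replicate number as a block the adjusted p of *Syt2* was 0.0995, and it was 0.0507 to 0.174 without wild type 1, 2 or 3 or mutant 1 or 4, with the log2 fold change between -0.41 and -0.37.

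*Syt1* was at 49.2, 44.9 and 46.4 CPM in wild types and at 45.3, 35.6, 83.0 and 55.1 CPM in mutants. The mutants lay on both sides of the wild types. The log2 fold change was 0.09 (SE 0.21, interval -0.38 to 0.57, edgeR adjusted p = 0.828), with -0.22 in the first and 0.57 in the second series. It was -0.06 without mutant 3 and -0.22 without wild type 3, so these data give no direction for *Syt1*. Mutant 3, with the highest *Syt1*, also had the highest sum of 10 granule cell markers (1196 CPM, against 621 to 674 CPM in the other mutants and 454 to 556 CPM in wild types), and the part of these cells in the *Syt1* value was not tested. All 10 granule cell markers had positive log2 fold changes (median 0.51), and none was called, among them *Fat2* (a cadherin of granule cell axons) and *Cbln3* (a synaptic cerebellin).

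Of the isoforms that bind Ca2+ with high affinity, *Syt3*, whose protein has been linked to the endocytosis of AMPA receptors, was lower in mutants. The gene lies on chromosome 7 from 44384102 to 44400187 (plus strand). It was at 22.2, 21.0 and 33.6 CPM in wild types and at 15.2, 13.5, 20.9 and 20.9 CPM in mutants. The highest mutants were just below the lowest wild type, and both genotypes were higher in the second series. This gave a log2 fold change of -0.63 (SE 0.098, interval -0.85 to -0.41, edgeR adjusted p = 0.00532), and the 4 mutants were -0.51 to -0.69 from the wild-type mean of their own series. Without wild type 3 the edgeR adjusted p was 0.0658, at a log2 fold change of -0.59, and without the series term it was 0.454.

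*Syt7*, the most abundant member, was at 1461, 1512 and 1374 CPM in wild types and at 1664, 1919, 1457 and 1315 CPM in mutants. The genotypes overlapped, with mutant 2 the highest and mutant 4 the lowest library. The log2 fold change was 0.17 (SE 0.10, interval -0.07 to 0.40, edgeR adjusted p = 0.373), with 0.27 in the first and 0.01 in the second series. A fall of the size of *Syt2* was outside this interval.

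*Syt5*, whose protein binds Ca2+ and is found on dense-core vesicles, was a low gene, with 10 to 300 counts per library. It was at 1.70, 2.14 and 2.93 CPM in wild types and at 0.524, 0.775, 2.09 and 1.95 CPM in mutants. Each mutant was below the wild types of its own series, but the genotypes overlapped across series. Across both series the log2 fold change was -1.03 (SE 0.27, interval -1.65 to -0.41, edgeR adjusted p = 0.0519). DESeq2 gave an adjusted p of 0.0152 for *Syt5*, and edgeR gave 0.0128 with no filter on low counts, 0.0211 with all libraries thinned to the shallowest, and 0.0486 without wild type 3 (log2 fold change -1.52). The difference was larger in the first series (-1.56) than in the second series (-0.54), which was not tested.

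**Figure D2:**
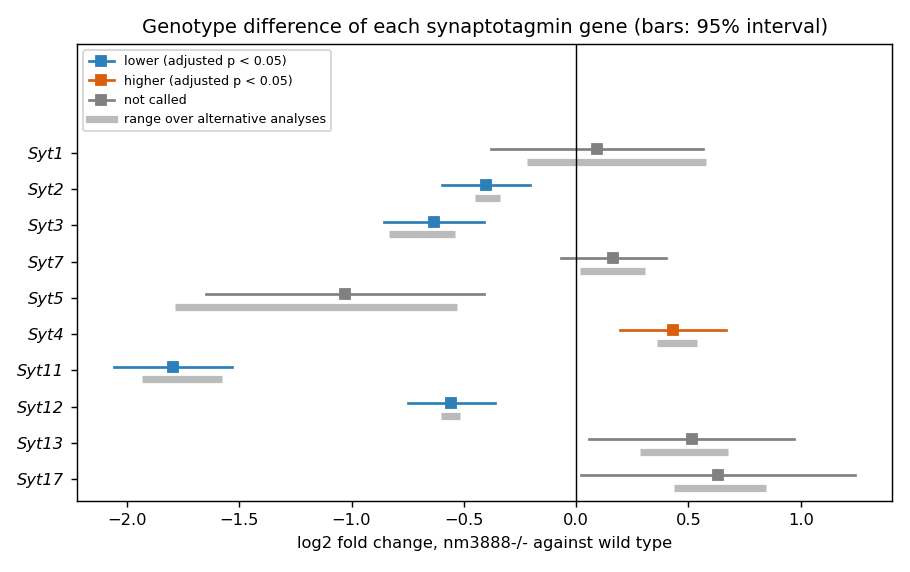
Log2 fold change of each synaptotagmin gene in nm3888-/- against wild type (squares, with 95% confidence intervals as thin bars) and the range over 16 alternative analyses (gray bars). *Syt11* is the farthest from 0 at -1.79, and the gray bar of *Syt1* spans 0.

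*Syt4* and *Syt11* are paralogs whose proteins carry a substitution in the Ca2+ site of the first C2 domain, and they moved in opposite directions. *Syt11*, on chromosome 3 from 88744700 to 88775164 (minus strand) and linked to vesicle recycling and membrane repair, was at 836, 830.0 and 733 CPM in wild types and at 235, 202, 264 and 225 CPM in mutants. The highest mutant was far below the lowest wild type. The log2 fold change was -1.79 (SE 0.12, interval -2.06 to -1.53, edgeR adjusted p = 5.66e-05). It was -1.93 in the first and -1.58 in the second series, and *Syt11* was called in all 16 alternative analyses. Only 139 of the genes tested (0.789%) had a log2 fold change at or below that of *Syt11*.

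*Syt4*, on chromosome 18, encodes a protein of dense-core vesicles whose gene is known to respond to neuronal activity. It was at 314, 274 and 224 CPM in wild types and at 351, 406, 340.0 and 309 CPM in mutants. Within each series all mutants were above all wild types, and mutant 4 was just below wild type 1. This was a log2 fold change of 0.43 (SE 0.10, interval 0.19 to 0.67, adjusted p = 0.0383 by edgeR's quasi-likelihood test), with 0.36 in the first and 0.53 in the second series. The edgeR adjusted p of *Syt4* was 0.122 with the replicate number as a block, and 0.0548 to 0.247 without wild type 2 or 3 or mutant 2, 3 or 4 (log2 fold change 0.36 to 0.44). An antisense gene, *Gm26658*, overlaps *Syt4*, and its counts, made by strand, were 0.0144 to 0.100% of those of *Syt4*.

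The ratio of the pair set the mutants apart, as *Syt11* alone already did. The log2 ratio of *Syt4* to *Syt11* CPM was -1.41, -1.60 and -1.71 in wild types and 0.58, 1.01, 0.37 and 0.46 in mutants. Per kb of exon, *Syt11* was also the higher of the pair in all wild types (141 to 161 CPM per kb, against 57.6 to 80.7 for *Syt4*), and *Syt4* in all mutants (79.4 to 104 CPM per kb, against 38.9 to 50.7 for *Syt11*).

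*Syt12*, *Syt13* and *Syt17* encode members that lack the usual Ca2+ binding. *Syt12*, on chromosome 19 from 4445908 to 4477447 (minus strand) and found as a protein on synaptic vesicles, was at 81.2, 91.5 and 97.6 CPM in wild types and at 58.3, 60.4, 65.8 and 64.9 CPM in mutants. All mutants were below all wild types. Its log2 fold change was -0.56 (SE 0.086, interval -0.75 to -0.36, edgeR adjusted p = 0.00526), and the mutants were -0.51 to -0.59 from the wild types of their series, the narrowest range of the family. The edgeR adjusted p of *Syt12* was 0.0550 without wild type 3, at a log2 fold change of -0.54. The counts of *A930001C03Rik*, on the other strand over *Syt12*, were 0.888 to 1.46% of those of *Syt12*.

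*Syt13* was at 13.3, 11.1 and 15.5 CPM in wild types and at 17.4, 14.96, 31.4 and 17.8 CPM in mutants. Mutant 3 stood above the other libraries, and mutant 2 was below wild type 3. The log2 fold change was 0.52 (SE 0.20, interval 0.06 to 0.97, edgeR adjusted p = 0.161). *Syt17*, whose protein lacks a transmembrane segment, was the lowest member with 13 to 100 counts per library. It was at 0.672, 0.514 and 0.9754 CPM in wild types and at 1.10, 1.04, 1.62 and 0.996 CPM in mutants. All mutants were above all wild types, the closest pair being mutant 4 and wild type 3. The fitted log2 fold change was 0.63 (SE 0.27, interval 0.02 to 1.24, edgeR adjusted p = 0.198). In both genes mutant 3, the library with the most granule cell marker RNA, was the highest, and the part of those cells was not tested.

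In 4 genes (*Syt2*, *Syt3*, *Syt11* and *Syt12*) all mutants were below all wild types, and in *Syt17* all were above. Over all genes tested, 8.92% had all mutants below and 5.16% all mutants above, together 14.1%.

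**Figure D3:**
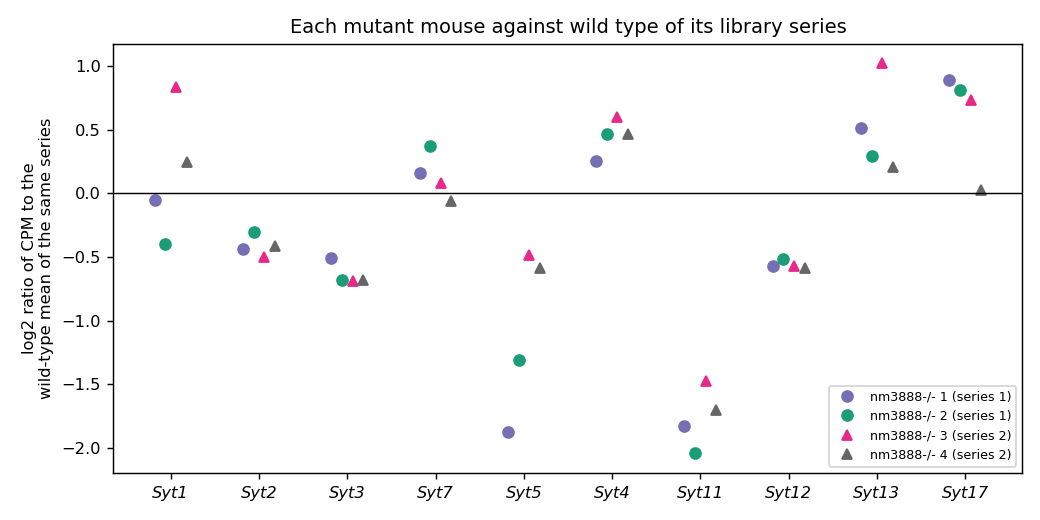
Log2 ratio of the CPM in each nm3888-/- mouse to the mean of the wild types in the same library series, for each synaptotagmin gene, with circles for the first and triangles for the second series. The 4 mice lie close together for *Syt2*, *Syt3* and *Syt12*, and spread from -0.40 to 0.84 for *Syt1*.

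The fast sensors were then compared with the other isoforms as shares of the RNA. *Syt1* and *Syt2* together took 20.9, 21.2 and 21.7% of the synaptotagmin counts in wild types (21.3 ± 0.396%, SD, n = 3) and 19.0, 18.4, 19.7 and 21.5% in mutants (19.7 ± 1.36%, SD, n = 4). Mutant 4 lay among the wild types and the other mutants below them. The difference of the means was -1.59 percentage points, or -0.97 points with counts taken per kb of exon, and no test was run on it. The exact 95% binomial (Clopper-Pearson) intervals of single libraries, which cover counting error only, were at most 0.657 points wide, so counting error was small beside the spread between mutants.

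The summed levels of the classes differed in overlap. The summed CPM of the fast sensors was 687 to 737 in wild types and 537 to 590 in mutants, and that of the other isoforms was 2481 to 2743 in wild types and 1956 to 2618 in mutants. The sum of the fast sensors was lower in every mutant than in any wild type, whereas mutant 2 was within the wild types for the other isoforms. That sum was mostly *Syt2* (mean 668 CPM in wild type, against 46.8 CPM for *Syt1*). *Syt1* itself was above all wild types in mutants 3 and 4, among them in mutant 1 and below them in mutant 2. The mean CPM of *Syt11* fell by more than the summed mean of the other isoforms did. Of the fast sensors 1 fell and 1 was not called, and of the other isoforms 3 fell, 1 rose and 4 were not called. Over all genes tested, 5.95% were called lower and 2.58% higher. The log2 fold changes of the 2 fast sensors were -0.40 (*Syt2*) and 0.09 (*Syt1*), so their median of -0.15 describes neither gene. The median of the 8 other isoforms was -0.20.

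Within the other isoforms the shares moved more than between the classes. *Syt11* took 23.7 ± 0.563% of the synaptotagmin counts in wild types and 8.29 ± 1.47% in mutants. *Syt7* took 43.0 ± 0.631% and 55.9 ± 3.33%, and *Syt4* took 8.02 ± 1.02% and 12.4 ± 0.221%. The share of *Syt2* was 19.9 ± 0.372% and 17.7 ± 1.14%. The log2 ratio of *Syt7* to *Syt2* CPM was 1.10 to 1.13 in wild types and 1.45 to 1.79 in mutants. These ranges did not overlap, and those of *Syt2* CPM alone did not either. Shares sum to 100%, and the CPM of *Syt7* itself was not called.

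**Figure D4:**
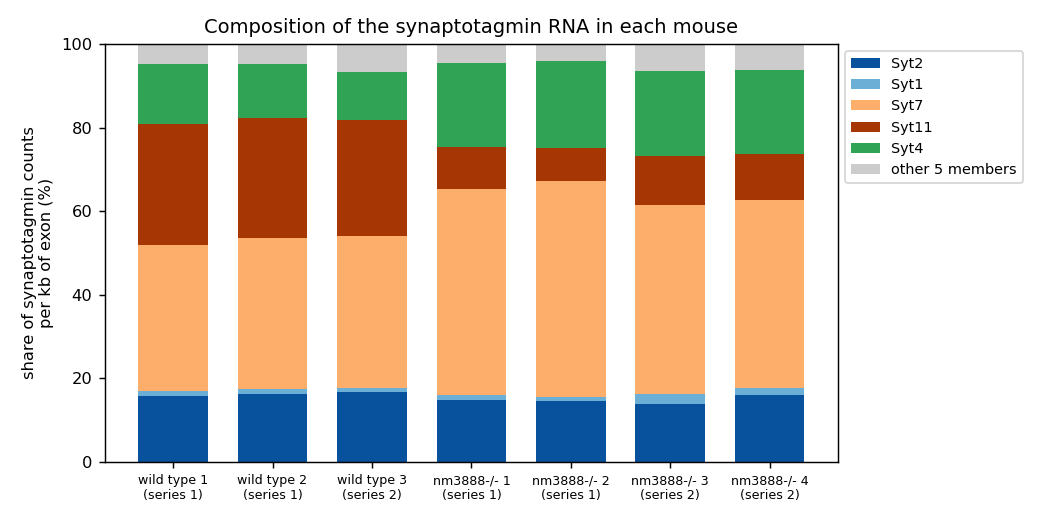
Share of the synaptotagmin counts per kb of exon (percent, stacked bars) in each of the 7 libraries. *Syt11* takes 27.9 to 28.9% of the bar in wild types and 7.84 to 11.8% in nm3888-/- mice.

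Other genes with C2 domains related to the synaptotagmins were counted from a list of 19, of which 11 were tested. *Syt16* fell (4.20 ± 0.586 to 1.46 ± 0.255 CPM, log2 fold change -1.52, SE 0.21, edgeR adjusted p = 0.00301) and *Sytl2*, a Rab27 effector, rose (2.67 ± 0.604 to 5.20 ± 1.19 CPM, log2 fold change 0.90, SE 0.22, edgeR adjusted p = 0.0388). *Doc2b*, a high-affinity Ca2+ sensor of spontaneous and asynchronous release, was at 278 ± 5.55 CPM per kb in wild type, above each of the 10 synaptotagmin genes. Its log2 fold change was -0.23 (SE 0.11, edgeR adjusted p = 0.254). *Rph3a*, a Rab3 effector, was at 17.1 ± 4.13 CPM per kb in wild type (log2 fold change 0.34, edgeR adjusted p = 0.264). *Syt9*, also a fast sensor and named after its values were seen, was at 8.39 ± 1.10 CPM in wild type and 11.4 ± 1.95 CPM in mutants (log2 fold change 0.39, edgeR adjusted p = 0.116).

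The proteins that synaptotagmins work with at the release site were counted from a list of 44 genes, all tested. Of these 9 fell, 1 rose and 34 were not called, and the median of their log2 fold changes was -0.08. For comparison, 5.95% of all genes tested were called lower and 2.58% higher. The number of partners that fell was 3 without the series term and 2 with sex in its place. It was 8 with the replicate number as a block and 11 with no filter on low counts. The number that rose was 2 with the block or without wild type 3, mutant 3 or mutant 4. *Stx1a*, a plasma membrane SNARE gene, was at 2.13, 1.62 and 2.27 CPM in wild types and 11.6, 13.4, 12.7 and 11.6 CPM in mutants (log2 fold change 2.59, SE 0.17, edgeR adjusted p = 5.61e-05). All mutants were above all wild types. *Cplx1*, the complexin that clamps and promotes synaptotagmin-driven fusion, was at 952 ± 81.3 CPM in wild type and 419 ± 41.7 CPM in mutants, a fall (log2 fold change -1.15, SE 0.090, edgeR adjusted p = 0.000150). *Rab3c*, a vesicle GTPase, and *Sv2a*, a vesicle glycoprotein that binds synaptotagmin 1, had log2 fold changes of -0.99 (SE 0.11) and -0.64 (SE 0.082).

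The tested genes whose log2 CPM followed *Syt11* most closely over the 7 libraries, centered within each series, were *Atcay*, the gene of caytaxin (Pearson r = 0.9997), *2900011O08Rik* (r = 0.9995) and *Eml2*, a microtubule-binding protein gene (r = 0.9992). They were picked as the highest of all genes tested, and the libraries and the genotype difference are shared by both sides of each correlation. Their log2 fold changes were -2.91, -4.66 and -1.59.

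Lists of markers of other cells moved as follows, beside the synaptotagmin values above. None of 10 interneuron markers was called (57.5 to 69.0 CPM summed in wild types and 60.3 to 94.9 CPM in mutants), nor any of 6 of 9 microglial markers tested (7.36 to 16.4 CPM and 8.02 to 20.3 CPM) or 8 endothelial markers (20.0 to 29.6 CPM and 22.9 to 37.4 CPM). None of 5 choroid plexus markers (107 to 131 CPM and 79.9 to 369.7 CPM) or 5 blood cell markers (87.2 to 112 CPM and 106 to 313 CPM) was called, and both sums were highest in mutant 3. Of 11 markers of Bergmann glia and astrocytes *Gfap* rose and *Hopx* fell (8149.9 to 13321 CPM and 9704 to 14178 CPM), a list whose sum rests on *Aldoc*, which Purkinje cells also express. Of 11 oligodendrocyte markers *Cnp* and *Cldn11* rose, all 4 named after their values were seen (506 to 735 CPM summed in wild types and 687 to 1234 CPM in mutants). The part of these cells in the synaptotagmin values was not tested.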

How the data were processed

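RNA from HA-immunoprecipitated ribosomes was sequenced from 7 mice. The authors deposited raw counts per gene, made with fastp (duplicate removal and trimming), alignment to mm10 and featureCounts 2.0.1 on GENCODE M25, paired and by strand. The methods name Bowtie2, and per the file headers the second series came from STAR. No normalization was applied before deposit.

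The members and gene lists were chosen with earlier results of these data known. Genes passing filterByExpr (17621) were tested with edgeR 4.0.16 (R 4.3.3, limma 3.58.1) by glmQLFit and glmQLFTest after TMM normalization, with library series, read from the library names, in place of the batch covariate of the methods, which does not name its libraries. Standard errors are the log2 fold change over the root of F. CPM carries SD over mice. p-values measure the spread between single mice. Sample groups come from the labels. Likeness used log2(CPM + 0.5).

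Named were all 10 members, up to 4 C2 relatives (called or highest per kb), the 4 called release partners of smallest adjusted p in each direction, Rreb1, up to 2 genes per marker list, and the 3 genes most like the member of smallest p. The values of 1 release partner that this rule names are not reported here.

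Alternatives were size factors in place of TMM, DESeq2 1.42.0, no filter, no series term, sex in its place, a replicate block, thinning to 18023017 counts, each series alone and each library left out. Libraries of the same number correlated in their deviations from the group means (r = 0.905, 0.947 and 0.955 for numbers 1 to 3). Libraries of the same series with different numbers did too (0.922 to 0.958), as the series set these deviations. These values therefore cannot show whether the numbers are pairs. The replicate block took them as pairs without such evidence.

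On simulated data (17451 genes tested), with 50 genes simulated at each fold, edgeR recovered 14 at 1.5-fold, 44 at 2-fold, 49 at 4-fold and 50 at 8-fold, and 16 of its 173 calls (9.25%) were false, against a nominal 5%.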

Additional observations from a re-analysis of the deposited data

Results flagged for a closer look

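*Syt17* in the nm3888-/- libraries had 1 library far from the other 3. Mutant 3 was at 1.62 CPM and the others at 0.996, 1.04 and 1.10 CPM, a gap of 0.832 of the whole range, beyond Dixon's 95% critical value for 4 samples. Chance exceeds this value in about 1 of 20 groups, and the other 9 genes did not exceed it.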

How the results depend on the processing

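The direction of 9 of the 10 genes was the same in all 16 alternatives. *Syt1* turned to -0.21 with sex in place of series, -0.22 in the first series alone, -0.22 without wild type 3 and -0.06 without mutant 3, and leaving out 1 library gave -0.22 to 0.27. *Syt11* was called in 16 alternatives, *Syt3* and *Syt12* in 11, *Syt2* and *Syt4* in 6 and *Syt5* in 4. Of the members, 1 was called lower without the series term, with sex in its place, in the first series alone and in the second series alone, and 0 were called higher in these and with the replicate block, which left 3 lower and ended no other call of a member than those of *Syt2* and *Syt4*. Leaving out 1 library gave 2 to 4 lower (2 without wild type 3) and 0 to 1 higher. Of the release partners, 2 were higher with DESeq2, 3 with no filter on low counts, and 2 with the block, in the first series alone and in the second series alone. The numbers lower were 3 without the series term, 2 with sex in its place and 4 in the second series alone, and leaving out 1 library gave 1 to 2 higher. Over all genes, against 1049 lower and 455 higher, DESeq2 called 794 higher, no filter 731 higher, no series term 251 lower and 58 higher, sex 85 lower and 17 higher, the replicate block 571 lower and 241 higher, the first series alone 488 lower and 191 higher, and the second series alone 493 lower. Leaving out 1 library gave 426 to 991 lower and 173 to 434 higher. The single series hold fewer samples. For the other settings the cause was not tested. The difference in the share of the fast sensors (-1.59 percentage points) was -2.35 in the first and -1.05 in the second series alone, -0.97 per kb of exon, -1.62 after thinning and -2.21 to -1.16 with 1 library left out, each within 1 SD of the mutants (1.36) of the reported value, but not within that of the wild types (0.396) for all of them. *Syt5* and *Syt17* had as few as 10 and 13 counts in a library, which limits their precision.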
